A study of Mus musculus with 6 samples.

Results

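The Notch pathway was followed through 10 genes in muscle stem cells of mice, with and without a deletion of Setdb1, during regeneration. The members were chosen by name: the receptor genes Notch1, Notch2 and Notch3, the ligand genes Dll1 and Jag1, the nuclear effector gene Rbpj, the target genes Hes1, Hey1 and Heyl, and the antagonist gene Numb. All 10 were found by symbol among the 55487 genes of the count table, and all 10 held enough counts to be tested. RNA sequencing was performed on 6 libraries in 2 groups of 3. Control mice carried the genotype label WT and received Oil, and knockout mice carried the label Setdb1 KO and were given Tamoxifen, which is used to switch on inducible recombinases. Both groups were 10 weeks old and both were injured with CTX (cardiotoxin, a venom toxin that kills muscle fibres), and cells were taken 60 h later. Drug and genotype changed together and cannot be told apart. No source used here gives the recombinase, the cells that express it or the deleted exon.

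Notch signalling passes between touching cells. A ligand of the Delta or Jagged family on 1 cell binds a Notch receptor on its neighbour, the receptor is cut by ADAM proteases and gamma-secretase, and its intracellular part enters the nucleus, joins the DNA-binding protein RBPJ and a Mastermind coactivator, and switches on repressor genes of the Hes and Hey families. In resting muscle stem cells (satellite cells) this pathway is known to hold the cells in quiescence and to hold back Myod1, the transcription factor of muscle commitment, and its activity is known to decline once the cells are activated by injury.

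Libraries held 4052569 to 5690844 counts, so members near 10 CPM (counts scaled to a fixed normalised library size) rested on few reads. Hey1, at 7.12 CPM in control libraries, had 210 counts over all 6. Protein-coding genes received 2002124 to 3050460 of the counts, and the most abundant gene held 28.6% to 38.4% of the counts of a library. Setdb1, the targeted gene, fell from 35.8 ± 4.26 CPM in control to 14.6 ± 1.88 CPM in KO libraries (mean ± SD, n = 3 each; log2 fold change -1.30, adjusted p = 2.09e-04), with no overlap between the groups. Over all 11224 genes tested, 318 passed an adjusted p of 0.05, which is 2.83%, with 2.22% higher and 0.615% lower in KO cells. Control library 3 stood apart by its blood cell transcripts: 10 neutrophil markers summed to 2177 CPM there, to 893 and 291 CPM in KO libraries 2 and 3, and to at most 2.66 CPM in the other libraries. Without this library the log2 fold changes of the members discussed most were 0.63 for Notch3, 0.72 for Heyl, -0.60 for Jag1 and -0.73 for Hes1, and 0 members were called with edgeR (2.98% of all genes).

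No member of the pathway passed the test over all genes. Notch3 and Heyl had higher levels in KO libraries, by log2 fold changes of 0.77 and 0.86, and Jag1 and Hes1 had lower levels, by -0.51 and -0.56. The log2 fold changes of Notch1, Notch2, Dll1, Rbpj, Hey1 and Numb lay between -0.19 and 0.10. With edgeR, 0 of 10 members were called, against 2.83% of all genes tested. DESeq2 and limma-voom also called 0 members, against 1.26% and 2.72% of the genes they tested. At an unadjusted p under 0.05 there were 2 higher (Notch3 and Heyl) and 1 lower (Jag1), and 17.7% of all genes tested reached that level, 10.1% higher and 7.64% lower. The groups did not overlap for Notch3 and Jag1, that is for 2 of 10 members, against 24.3% of all genes tested (12.8% higher and 11.5% lower). The median log2 fold change of the members was -0.0034, and that of all genes tested was 0.0074.

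**Figure D1:**
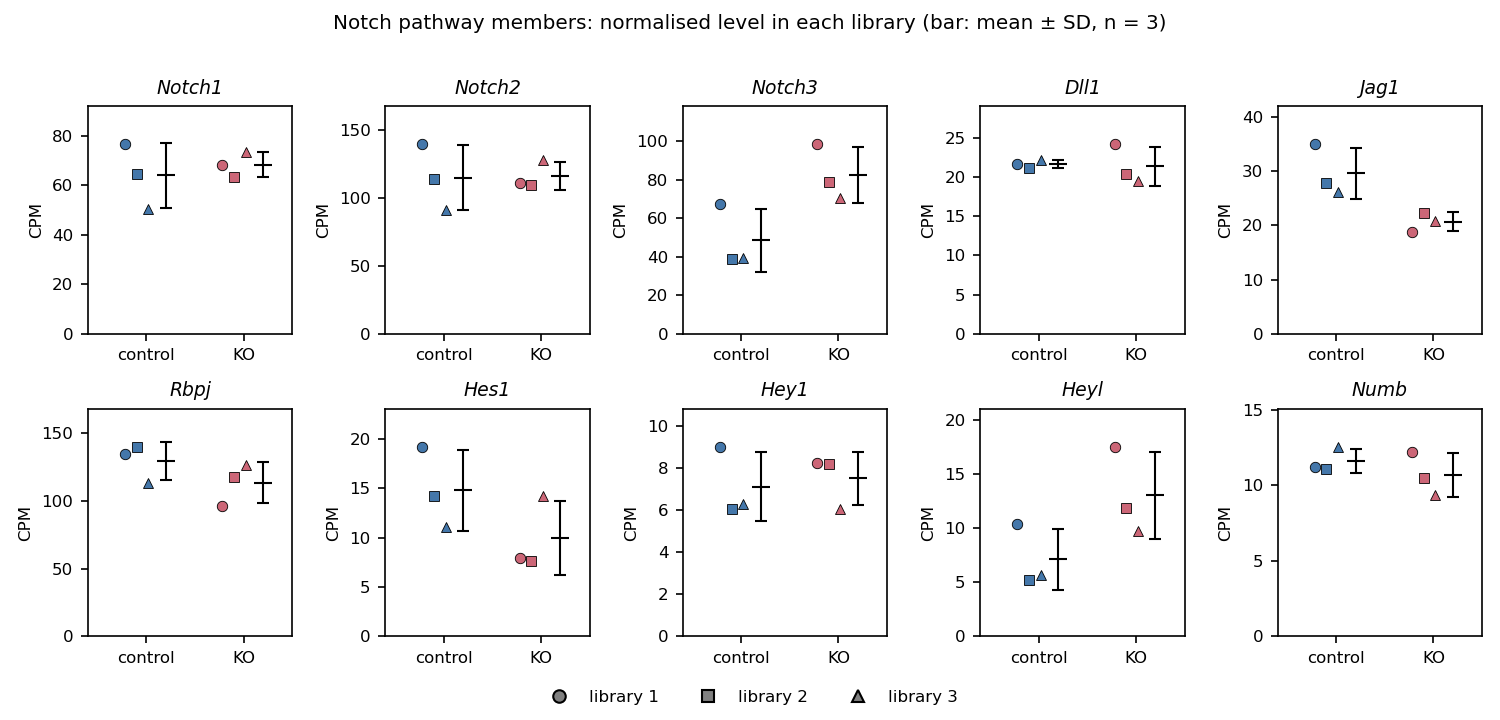
Level of each of the 10 Notch pathway members in CPM (y axis, from 0) in 3 control and 3 KO libraries (x axis). Symbols mark the library number within a group, which pairs no samples, and the bar gives mean ± SD. All 3 KO libraries lie above all control libraries for Notch3 and below them for Jag1, while the groups overlap for the other 8 members.

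Of the 3 receptors, Notch3 alone had groups that did not overlap, and no test compared the fold changes of the 3 with each other. Notch3 (ENSMUSG00000038146, chromosome 17, 32120820 to 32166852, minus strand, GRCm38) encodes the receptor known from satellite cells and vascular mural cells. Control libraries had 67.5, 38.6 and 39.5 CPM of it, and KO libraries 98.7, 79.1 and 70.4 CPM. Every KO library was above every control library, though control library 1 came close to KO library 3. The means were 48.5 ± 16.4 and 82.7 ± 14.5 CPM, and the log2 fold change was 0.77 (SE 0.24, 95% interval 0.20 to 1.33). The edgeR test gave an unadjusted p of 0.0148 and an adjusted p of 0.165. Leaving out control library 1, the highest control, changed the call. Without it the log2 fold change was 1.07 and the adjusted p was 0.0019, where 2.10% of all genes were called. With any other library left out, the log2 fold change was 0.61 to 0.86 and Notch3 was not called (edgeR adjusted p = 0.215 to 0.384). DESeq2 gave an adjusted p of 0.093 with all libraries.

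Notch1 (ENSMUSG00000026923, chromosome 2, 26457903 to 26516663, minus strand), whose product is known to act in the expansion of satellite cells, was at 76.7, 64.7 and 50.6 CPM in control and at 68.1, 63.4 and 73.7 CPM in KO libraries. Notch2 (ENSMUSG00000027878, chromosome 3, 98013527 to 98150361, plus strand), which encodes a receptor known to help hold quiescence, was at 139.6, 114 and 91.3 CPM in control and at 111, 109.7 and 128 CPM in KO libraries. For both genes the KO libraries lay within the range of the control libraries, of which library 3 was the lowest. The log2 fold changes were 0.10 for Notch1 (95% interval -0.21 to 0.41, adjusted p = 0.771) and 0.02 for Notch2 (95% interval -0.30 to 0.33, adjusted p = 0.968). Changes of 1.5-fold lie outside both intervals. The signs were not stable: without control library 3 the values were -0.05 and -0.13, and Notch2 was also at -0.06 with scaling by library totals and at -0.02 with DESeq2.

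The promoters of Notch3 and Rbpj are printed to show the receptor gene whose groups did not overlap beside a member promoter that holds the core motif of RBPJ, the factor that answers the receptors. The core TGGGAA was searched on both strands in the 250 bases before each start site of the RefSeq promoter table (GRCm38.p6). The table held 7 of the 10 members with 11 start sites, and Hes1, Hey1 and Heyl were not among them. The core was found in 2 of these 11 promoters (18.2%), overlapping windows of Rbpj, and in 21.6% of the 32851 promoters of the table, so its share among the members was near that of all promoters. The longer form GTGGGAA was found in 0 of the 11 and in 5.42% of all promoters. Both stretches are given from RefSeq, 5′ to 3′, without bases inside annotated exons, with the core in capitals. The Notch3 stretch (chr17:32166891-32167140, minus strand) has no match, and the Rbpj stretch (chr5:53590096-53590213, plus strand) has 1, at 53590197 to 53590202. The Rbpj stretch lies inside the annotated span of the gene (53466152 to 53657362), before a start site downstream of the gene's first base. A match is a description of letters and not a measured binding site.
Notch3: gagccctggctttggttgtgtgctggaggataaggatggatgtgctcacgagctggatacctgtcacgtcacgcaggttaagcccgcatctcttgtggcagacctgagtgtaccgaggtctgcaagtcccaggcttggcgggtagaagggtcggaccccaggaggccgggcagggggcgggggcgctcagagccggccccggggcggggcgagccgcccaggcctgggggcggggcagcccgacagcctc
Rbpj: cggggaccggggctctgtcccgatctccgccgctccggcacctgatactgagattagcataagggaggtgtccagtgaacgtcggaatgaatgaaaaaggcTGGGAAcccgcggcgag

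Of the ligands, Jag1 separated the groups and Dll1 did not. Jag1 (ENSMUSG00000027276, chromosome 2, 137081456 to 137116644, minus strand) encodes the membrane ligand Jagged1. It was measured at 35.0, 27.8 and 26.2 CPM in control and at 18.9, 22.4 and 20.9 CPM in KO libraries. All KO libraries were below all control libraries. The means were 29.7 ± 4.71 and 20.7 ± 1.76 CPM, and the log2 fold change was -0.51 (SE 0.16, 95% interval -0.85 to -0.18). The edgeR test gave an unadjusted p of 0.0051 and an adjusted p of 0.0991. No alternative called it, and its log2 fold change ran from -0.65 to -0.39.

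Dll1 (ENSMUSG00000014773, chromosome 17, 15367354 to 15376872, minus strand), the Delta ligand gene known to be made by differentiating myogenic cells, was at 21.6, 21.1 and 22.2 CPM in control and at 24.2, 20.3 and 19.5 CPM in KO libraries. The KO libraries lay on both sides of the narrow control range. The log2 fold change was -0.02 (95% interval -0.34 to 0.29, adjusted p = 0.954), and it was 0.02 without KO library 3. A noncoding gene on the opposite strand, A930024N18Rik, covers 20.5% of the exon bases of Dll1, and no source used here says whether counting used strand.

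Rbpj (ENSMUSG00000039191, chromosome 5, 53466152 to 53657362, plus strand), the gene of the DNA-binding protein on which all Notch receptors converge, was at 134, 139.7 and 113 CPM in control and at 96.3, 117 and 126 CPM in KO libraries. The groups overlapped, and KO library 1 was the lowest of the 6. The log2 fold change was -0.19 (95% interval -0.47 to 0.10, adjusted p = 0.489). Of the 50-base words of its annotated transcripts, 10.3% occur in other genes, chiefly the pseudogene Rbpj-ps3, so a part of its reads may be assigned to either.

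The 3 target genes did not share a direction. Heyl (ENSMUSG00000032744, chromosome 4, 123233556 to 123249875, plus strand) and Hey1 (ENSMUSG00000040289, chromosome 3, 8663359 to 8667256, minus strand) encode paired repressors that maintain undifferentiated satellite cells, and Hes1 (ENSMUSG00000022528, chromosome 16, 30064384 to 30067796, plus strand) encodes a short-lived repressor that oscillates in activated satellite cells. Heyl was measured at 10.4, 5.22 and 5.73 CPM in control and at 17.6, 11.9 and 9.77 CPM in KO libraries. The groups overlapped at 1 point only, where control library 1 exceeded KO library 3. The means were 7.12 ± 2.86 and 13.1 ± 4.02 CPM, and the log2 fold change was 0.86 (SE 0.30, 95% interval 0.22 to 1.499). The edgeR test gave an unadjusted p of 0.0126 and an adjusted p of 0.153. Without control library 1, the highest control, the log2 fold change was 1.22 with an adjusted p of 0.0457. With any other library left out, it was 0.60 to 1.02 and Heyl was not called (edgeR adjusted p = 0.130 to 0.429). DESeq2 gave an adjusted p of 0.592 with all libraries. Notch3 and Heyl shared their 2 lowest libraries, control libraries 2 and 3, and both were highest in KO libraries 1 and 2.

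Hes1 was measured at 19.2, 14.2 and 11.1 CPM in control and at 7.98, 7.60 and 14.3 CPM in KO libraries. KO libraries 1 and 2 were below every control library, while KO library 3 was as high as control library 2. The log2 fold change was -0.56 (SE 0.27, 95% interval -1.16 to 0.04, adjusted p = 0.32), and it depended on single libraries: it was -0.94 without KO library 3 (adjusted p = 0.0977) and -0.34 without control library 1 (adjusted p = 0.615). Fos, an immediate early gene that cell isolation is known to induce, was also highest in control library 1 and KO library 3, at 159 and 162 CPM against 81.3 to 115 CPM in the others, and its part in the Hes1 values was not tested. Fos was chosen after its values were seen.

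Hey1 was measured at 9.01, 6.05 and 6.28 CPM in control and at 8.25, 8.21 and 6.06 CPM in KO libraries. The 2 groups covered the same range. The log2 fold change was 0.07 (95% interval -0.49 to 0.63, adjusted p = 0.921), and its sign turned with scaling by library totals (-0.0034) and when any 1 of 3 libraries was left out: control library 2 (-0.04), control library 3 (-0.02) or KO library 2 (-0.0068). With 210 counts over 6 libraries, Hey1 was the member with the fewest reads, and a 1.5-fold difference in either direction is near the ends of its interval.

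Numb (ENSMUSG00000021224, chromosome 12, 83794034 to 83921934, minus strand), whose product promotes the removal of Notch receptors from the membrane and is passed on unequally when satellite cells divide, was at 11.2, 11.1 and 12.6 CPM in control and at 12.2, 10.5 and 9.38 CPM in KO libraries. The groups overlapped, and the log2 fold change was -0.13 (95% interval -0.54 to 0.28, adjusted p = 0.772).

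**Figure D2:**
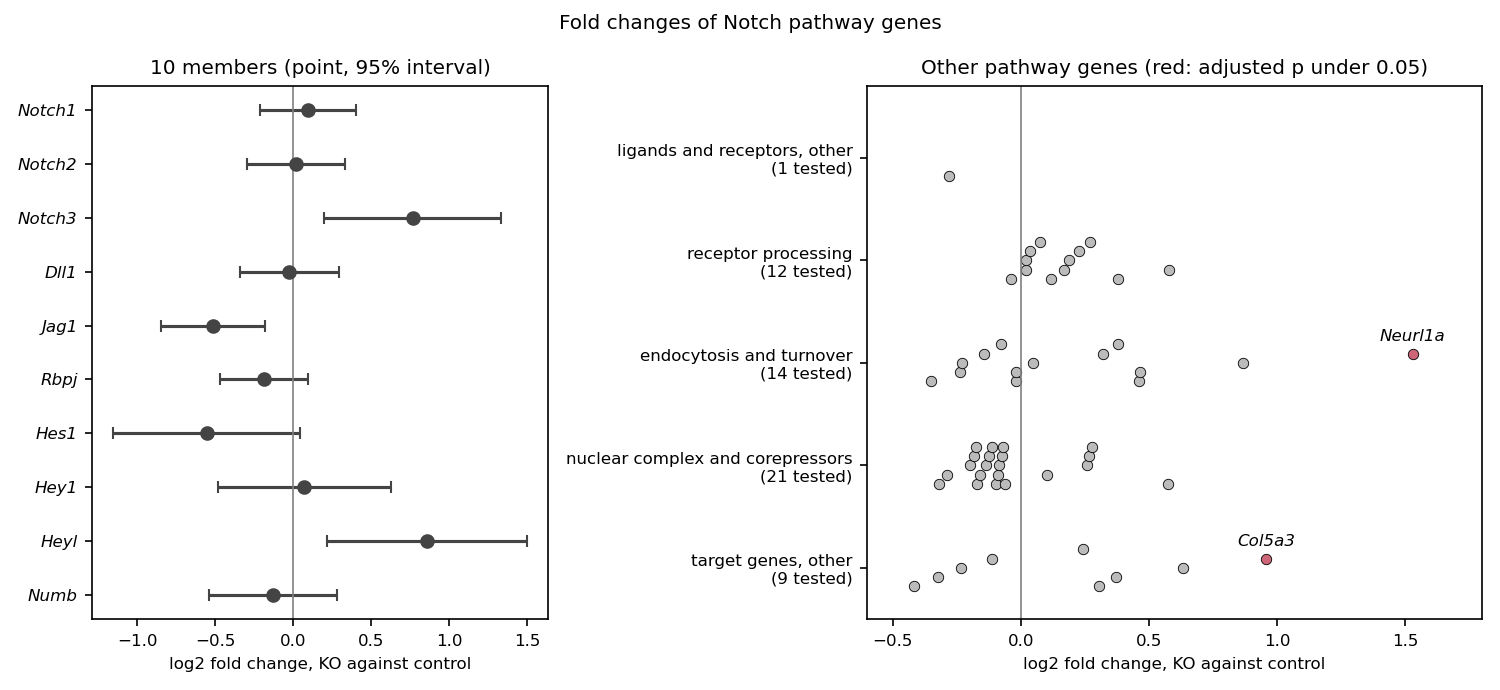
Log2 fold change of KO against control (x axis) for the 10 members (left, point with 95% interval) and for 57 tested genes of 5 further pathway lists (right, 1 point per gene, spread vertically for legibility). The intervals of Notch3, Jag1 and Heyl leave out 0 before adjustment for multiple tests, and Neurl1a and Col5a3 (red) are the only further genes with an adjusted p under 0.05.

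Levels can be set against each other only per length. On the scale of CPM per kilobase of annotated exons, the order of the control means was Notch2 (10.7), Rbpj (10.1), Hes1 (7.28), Notch3 (6.001), Dll1 (5.13), Jag1 (5.09), Notch1 (4.50), Numb (2.96), Hey1 (2.18) and Heyl (1.39). For 2 pairs of neighbours in this order, Notch1 and Numb, and Numb and Hey1, the ranges over 3 libraries did not overlap, and for the other 7 pairs they did. In KO libraries the order began with Notch2 (10.8), Notch3 (10.2) and Rbpj (8.88), went on with Dll1 (5.06), Hes1 (4.88), Notch1 (4.81) and Jag1 (3.56), and ended with Numb (2.73), Heyl (2.56) and Hey1 (2.30). Notch3 thus stood at rank 4 in control and rank 2 in KO libraries, and Hes1 at rank 3 and rank 5. In KO libraries the range of Notch3 overlapped those of its neighbours Notch2 and Rbpj, and that of Hes1 those of Dll1 and Notch1. Rbpj and Notch1 depend most on the length used: with the longest transcript in place of all exons, Rbpj led in both groups at 23.5 and 20.6 CPM per kilobase and Notch1 moved from rank 7 to rank 4 in control libraries. By the longest transcript, Notch3 stood at rank 5 in control and rank 3 in KO libraries.

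Ratios within a library do not depend on scaling between libraries. In the 3 receptor shares and 2 ratios computed, the groups did not overlap, but each set holds Notch3, Jag1 or Heyl, whose own levels differed most, and no share of non-overlap was computed for ratios of other genes. Notch3 made up 31.3%, 24.0% and 28.9% of the summed level per kilobase of the 3 receptors in control libraries and 44.7%, 40.1% and 33.8% in KO libraries, a difference of 11.5 percentage points (28.1% ± 3.71 and 39.5% ± 5.51). The share of Notch2 was 50.6% ± 2.35 in control and 41.8% ± 4.22 in KO libraries, and that of Notch1 was 21.4% ± 1.36 and 18.6% ± 1.31. The 3 shares add to a whole, so these are not separate results.

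Per kilobase, the log2 ratio of Dll1 to Jag1 was -0.23, 0.07 and 0.22 in control and 0.82, 0.33 and 0.37 in KO libraries. Dll1 was above Jag1 on this scale in 2 of 3 control and in 3 of 3 KO libraries. The log2 ratio of Hey1 to Heyl was 0.44, 0.86 and 0.78 in control and -0.44, 0.11 and -0.04 in KO libraries, which puts the partner genes near equal levels in KO cells. An exact two-sided permutation test gave p = 0.1 for each of the 5 ratios (adjusted p = 0.1), which is the smallest p that 3 libraries against 3 can give, so none can pass 0.05. Leaving out any 1 library kept the sign of all 5, which follows from groups that do not overlap and adds no evidence.

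**Figure D3:**
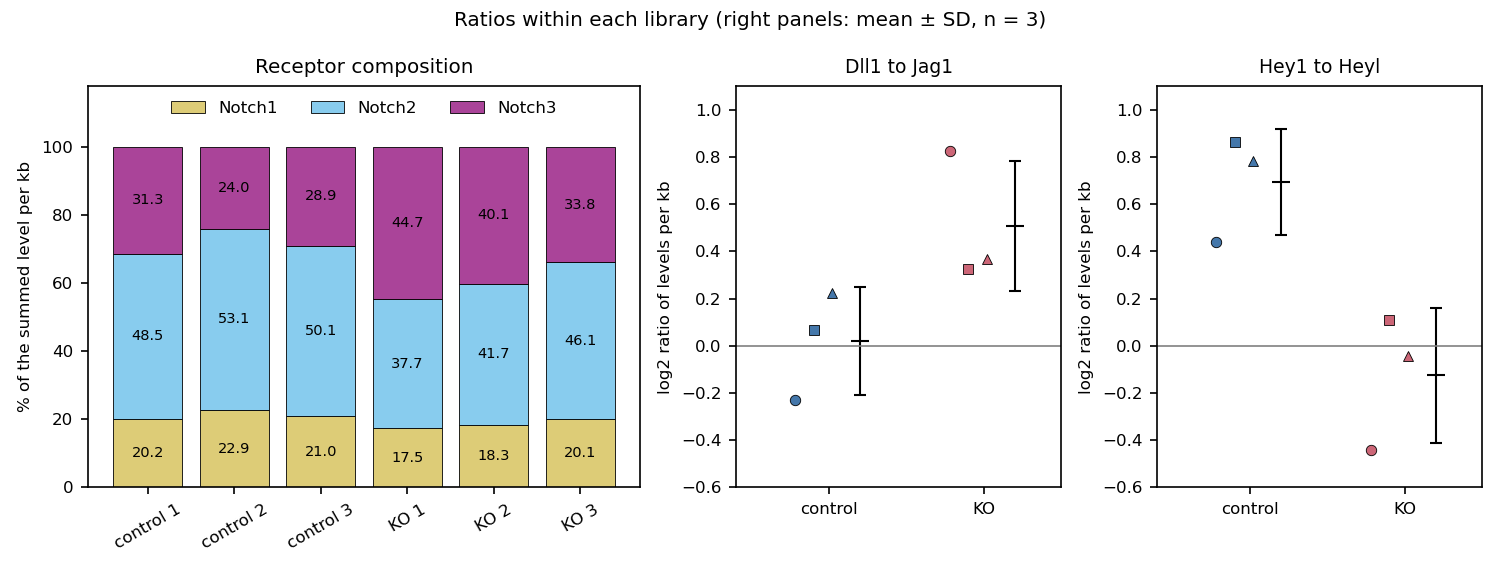
Left, share of Notch1, Notch2 and Notch3 in the summed level per kilobase of the 3 receptor genes (stacked, %) in each library. Right, log2 ratio of Dll1 to Jag1 and of Hey1 to Heyl in each library with mean ± SD; the share of Notch3 is 24.0% to 31.3% in control and 33.8% to 44.7% in KO libraries.

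The rest of the pathway was read from 5 lists with 72 genes, of which 57 were tested. In these lists 2 genes rose and 0 fell with edgeR (3.51% of those tested, against 2.83% of all genes), and the median log2 fold change was -0.02. Neurl1a (ENSMUSG00000006435, chromosome 19, 47178820 to 47259441), which encodes a ubiquitin ligase of the Neuralized family that acts on Notch ligands, was at 2.00, 2.71 and 1.85 CPM in control and at 6.65, 5.54 and 6.84 CPM in KO libraries, without overlap. On the log2 scale it rose by 1.53 (SE 0.33, edgeR adjusted p = 0.0194), from 33 counts in control libraries together. DESeq2 did not call it (adjusted p = 0.258). It kept its call without control library 2, and leaving out any other library raised the adjusted p to between 0.0505 and 0.0919.

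Col5a3 (ENSMUSG00000004098, chromosome 9, 20770050 to 20815067), a collagen V gene known as a target of Notch and RBPJ in satellite cells, was at 26.2, 19.0 and 14.2 CPM in control and at 38.8, 40.0 and 36.5 CPM in KO libraries. Its mean of 19.8 ± 6.05 CPM in control rose to 38.5 ± 1.78 CPM, which is 0.96 on the log2 scale (SE 0.19, edgeR adjusted p = 0.0124), and all KO libraries were above all control libraries. Col5a3 no longer passed when control library 2 (adjusted p = 0.0927), KO library 1 (0.0997) or KO library 2 (0.0703) was left out, nor with scaling by library totals (0.0573). The collagen genes Col5a1, Col6a1 and Col6a2 of the same target list did not pass, and their groups overlapped. Their log2 fold changes were 0.63, 0.24 and 0.30 (edgeR adjusted p = 0.213, 0.761 and 0.754). They were named after their values were seen. Collagen V is also a product of fibroblasts, and 9 fibroblast markers summed to 1331, 571 and 948 CPM in control and to 1185, 1209 and 1751 CPM in KO libraries. These sums overlapped between the groups. Col3a1 and Dpt, 2 of the 7 tested, were higher in every KO library than in every control library, against 12.8% of all genes tested. Of 7 tested fibroblast markers, 0 passed with edgeR, DESeq2 or limma-voom, against 2.83% of all genes with edgeR. At an unadjusted p under 0.05 there was 1 higher, against 10.1% of all genes tested. All 7 had positive log2 fold changes, as did 5712 of all 11224 genes tested. The part of fibroblasts in the Col5a3 value was not tested.

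Within the lists, the members were spread as follows. Over all genes tested, 2.83% passed with edgeR. Of 9 further target genes Col5a3 alone passed, and 3 higher and 1 lower had an unadjusted p under 0.05. Of 14 genes of endocytosis and turnover Neurl1a alone passed, and 3 higher and 1 lower had an unadjusted p under 0.05. Over all 11224 genes tested, 5712 log2 fold changes were positive and 5512 negative. An unadjusted p under 0.05 was reached by 10.1% with higher and 7.64% with lower levels (edgeR). No gene of receptor processing passed among 12 with edgeR, DESeq2 or limma-voom, with 1 higher at an unadjusted p under 0.05, and 11 of the 12 log2 fold changes were positive (median 0.14). The protease genes Adam10 and Furin, its most abundant members, were at 70.4 ± 3.39 and 74.0 ± 5.92 CPM and at 62.2 ± 1.17 and 75.2 ± 2.96 CPM (control and KO; adjusted p = 0.777 and 0.205). No gene of the nuclear complex and its corepressors passed among 21 with these tools, with 1 higher at an unadjusted p under 0.05, and 16 of the 21 log2 fold changes were negative (median -0.10). Ncor1 and Crebbp, its most abundant members, had log2 fold changes of -0.11 and -0.10 (adjusted p = 0.667 and 0.745). The 1 higher gene there, L3mbtl3, was chosen after its values were seen: it encodes a corepressor that binds RBPJ and was at 15.2 ± 0.83 CPM in control and 22.8 ± 1.26 CPM in KO libraries (adjusted p = 0.058).

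Several classical genes of the pathway were too low to test. Among the other ligands and receptors only Jag2 was tested, at 8.48 ± 1.32 and 7.02 ± 1.87 CPM (adjusted p = 0.623), and Dlk2 was at 1.63 and 1.94 CPM. Counts summed over all 6 libraries were 6 for Notch4 and 10 for Dll4, genes known from endothelium, and 1 for the target gene Hes5. Nrarp and Hey2, both Notch targets, had 2 to 7 and 0 to 12 counts per library. At this depth a difference in these genes was not detectable. These genes were chosen for display after their values were seen.

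Genes of the state that Notch is known to hold were also read. Of 15 genes of satellite cell quiescence, all tested, none passed with edgeR, DESeq2 or limma-voom, against 2.83% of all genes with edgeR. At an unadjusted p under 0.05 there were 2 higher and 1 lower, against 10.1% higher and 7.64% lower over all genes tested. The median of the list was 0.04 on the log2 scale. The list also holds Fos, named above as a gene that cell isolation is known to induce. Pax7, Sdc4 and Vcam1 of this list were also used as markers of muscle stem cells, so it is not a list of quiescence alone. Sdc4 and Vcam1, the most abundant, were at 292 ± 5.76 and 280.0 ± 20.8 CPM and at 196 ± 7.95 and 215 ± 11.6 CPM (adjusted p = 0.825 and 0.571). Pax7, the gene that marks satellite cells, had 26.9 ± 5.70 CPM in control and 26.9 ± 6.56 CPM in KO libraries (adjusted p = 0.986). Calcr, the calcitonin receptor gene of the quiescence list, was at 5.73 ± 2.54 and 4.70 ± 1.36 CPM (adjusted p = 0.75). Pax7 and Calcr were named after their values were seen. Of 5 tested genes of myogenic commitment Myod1 alone passed, against 2.83% of all genes tested. Myod1 was at 141, 148 and 137 CPM in control and at 361, 276 and 238 CPM in KO libraries (log2 fold change 1.04, adjusted p = 7.79e-04). Among KO libraries its order was that of Notch3 and Heyl, and among control libraries it was highest in library 2, where they were lowest.

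The libraries carried transcripts of other cells that use the same pathway, and in bulk samples fewer cells of a type and less RNA per cell cannot be told apart. The muscle stem cell markers summed to 1180.0 to 1322 CPM in control and 1350 to 1512 CPM in KO libraries, and all 10 were detected. Without Myod1 the sums of the other 9 were 1181, 1157 and 1043 CPM in control and 1151, 1088 and 1112 CPM in KO libraries and overlapped. Mural cells of blood vessels are known for Notch3 and Heyl, and their part in the values of these genes was not tested. Their 10 markers summed to 62.5, 59.7 and 98.8 CPM in control and 125, 109 and 104 CPM in KO libraries. Of 6 tested, 2 rose, against 2.22% of all genes tested. These were Tagln (log2 fold change 1.51, adjusted p = 8.32e-04) and Acta2 (0.72, adjusted p = 0.0333), genes of contractile actin filaments. Both made up a large part of the sums. Acta2 was at 32.2, 37.8 and 46.6 CPM in control and at 76.6, 64.5 and 52.2 CPM in KO libraries. Tagln was at 5.21, 5.43 and 8.68 CPM in control and at 18.9, 19.1 and 17.4 CPM in KO libraries. Sums of the mural markers without these 2 genes were not computed. Acta2 no longer passed with DESeq2 (adjusted p = 0.0818), nor when library 1 or 2 of either group was left out (up to 0.161). Of the 6 tested, 4 had positive log2 fold changes, as did 5712 of all 11224 genes tested. Cspg4, a proteoglycan gene of pericytes, was at 4.41, 2.71 and 3.51 CPM in control and at 6.38, 5.13 and 6.64 CPM in KO libraries, without overlap (log2 fold change 0.76, adjusted p = 0.213), and Pdgfrb had a log2 fold change of 0.30 (adjusted p = 0.745). Rgs5 was at 4.01, 3.55 and 17.2 CPM in control and at 8.25, 6.78 and 9.97 CPM in KO libraries, so that every KO library was above control libraries 1 and 2 and below control library 3. Abcc9 was at 1.40, 2.09 and 10.7 CPM in control and at 3.46, 1.44 and 1.76 CPM in KO libraries. It was also highest in control library 3, with 58 counts there and 7 to 13 in the others. Kcnj8 had at most 5 counts in any library. The single markers of other cell types that did not pass were chosen after their values were seen.

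The 12 endothelial markers summed to 6.47 to 15.8 CPM in control and 13.7 to 21.0 CPM in KO libraries, with Pecam1, Cdh5 and Kdr at 7 counts or fewer in every library. Macrophage markers summed to 10.9 to 111 CPM in control and 11.2 to 47.2 CPM in KO libraries, and Schwann cell markers to 23.4 to 34.7 and 22.9 to 38.6 CPM, nearly all of it Ngfr. With control library 3 and KO library 2, the richest in neutrophil transcripts, both left out, the log2 fold changes were 0.66 for Notch3, 0.78 for Heyl, -0.65 for Jag1 and -0.56 for Hes1, and 0 members were called, against 2.56% of all genes.

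**Figure D4:**
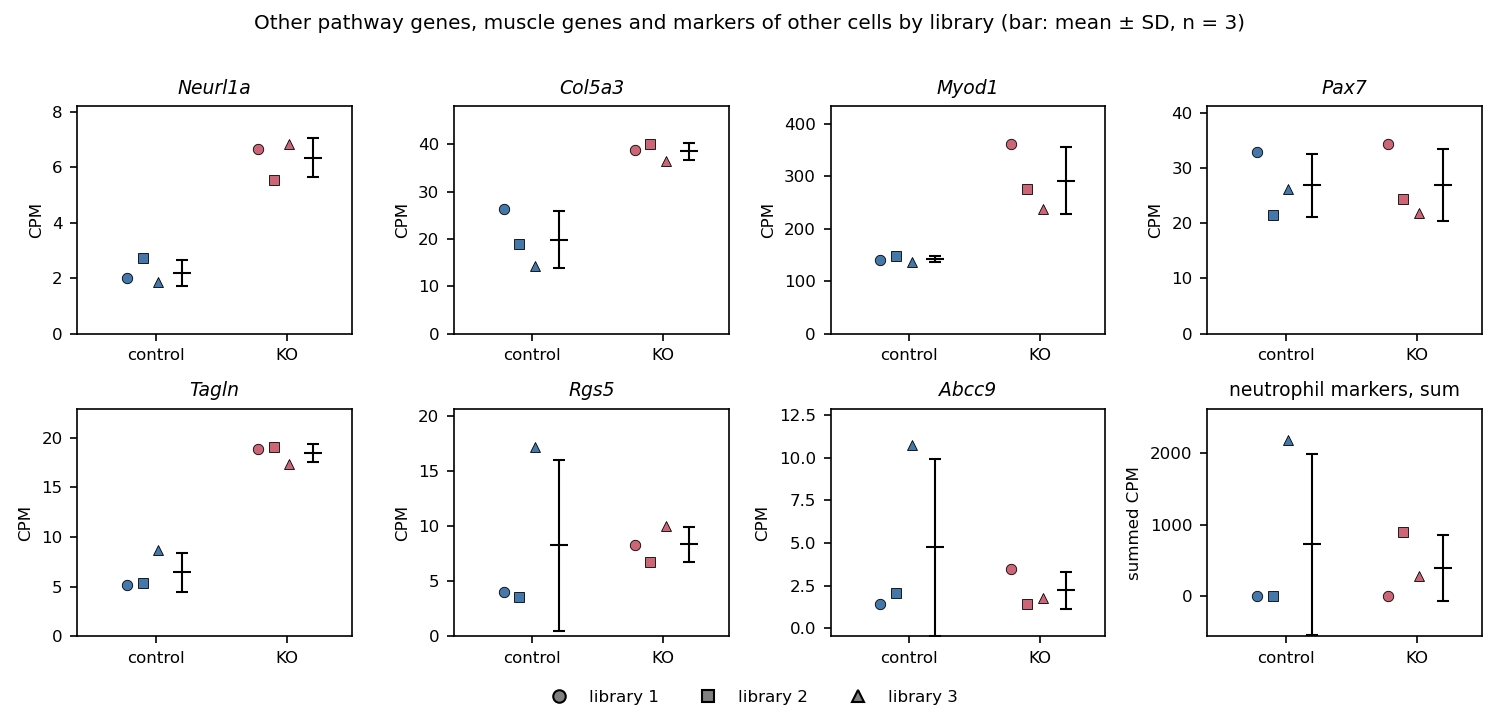
CPM (y axis) in each control and KO library of the called pathway genes Neurl1a and Col5a3, of Myod1 and Pax7, of the mural markers Tagln, Rgs5 and Abcc9, and the summed CPM of 10 neutrophil markers; bars give mean ± SD. Neurl1a, Col5a3, Myod1 and Tagln separate the groups, whereas Rgs5, Abcc9 and the neutrophil sum are highest in control library 3.

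Among the members, Jag1 had the smallest p. The 3 tested genes whose profile over the 6 libraries was most like it were Cdca7l, Atad5 and Slc20a1, with root mean square differences of centred log2 CPM of 0.06, 0.07 and 0.07, against a median of 0.37 over 11223 genes. Their log2 fold changes were -0.47, -0.46 and -0.48, and none passed the test (adjusted p = 0.215, 0.136 and 0.0587). Likeness was measured over the same libraries as the comparison and is a description.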

How the data were processed

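The authors deposited 1 table of raw counts, whole numbers for each Ensembl gene and library. STAR, Salmon and DESeq2 1.34.0 and the GRCm38 build are named in the submitters' processing notes, but no source used here says which of them counted, with what strand setting or on which annotation. The labels' protocols name both a stranded total RNA kit with ribosomal RNA removal and a SMARTER mRNA kit. Symbols, coordinates and exon lengths came from GENCODE M21 (GRCm38), which held 55227 of 55487 genes. The test was edgeR's two-sided quasi-likelihood test (version 4.0.16 in R 4.3.3; TMM, robust dispersion, filterByExpr), adjusted over 11224 genes by the Benjamini-Hochberg method and tested on simulated data. The SE is the fold change over the root of its F statistic. CPM uses the TMM library sizes. Alternatives, 15 in all, included DESeq2 1.42.0, limma-voom (limma 3.58.1), other scalings and filters, removal of mitochondrial and structural RNA genes, the replicate number as a block, and each library left out. Leaving out control library 3 and KO library 2 together was chosen after seeing the data. Permutation tests used SciPy 1.17.1.

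The members and lists were chosen with earlier results of these data known. Genes named are the 10 members, Setdb1, every gene of a list past the threshold or else its 2 most abundant (for other cell types given mostly as sums), and the 3 genes most like the member with the smallest p; any others are marked. No separate animals are stated beyond the label of biological replicates, so p-values measure the spread between these libraries. No library was a copy of another: within groups, all pairs of libraries differed beyond sampling noise (chi-square test).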

Additional observations from a re-analysis of the deposited data

How the results depend on the processing

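The sign of Notch3, Heyl, Jag1, Hes1, Rbpj and Numb was the same under all 15 alternatives. Of 150 member values under alternatives, 15 changed sign and 5 passed where the reported test did not, and no member lost a call because none was made. The sign changes were in genes near 0. Notch2 was at -0.063 with library totals, -0.024 without a low-count filter, -0.016 with DESeq2 and -0.08 with control library 3 and KO library 2 both left out, and leaving out 1 library gave -0.13 to 0.17. Leaving out 1 library gave -0.050 to 0.24 for Notch1, -0.12 to 0.02 for Dll1, -0.04 to 0.26 for Hey1 and -0.20 to 0.011 for Crebbp. Hey1 was at -0.0034 with library totals, and with both of those libraries left out Dll1 was at 0.026 and Hey1 at -0.091. The count of members called was 2 without a low-count filter (Notch3, adjusted p = 5.12e-04, and Heyl, 0.0441; 1.46% of all genes) and 0 to 2 when 1 library was left out. The count over all genes was 511 without a filter, 184 with DESeq2 and 152 to 345 when 1 library was left out. The cause was not tested.

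With the replicate number as a block, 1 member was called (Notch3, log2 fold change 0.80, adjusted p = 0.0062), the call of Acta2 ended (adjusted p = 0.107), and 247 genes passed in all. The numbers do not pair the libraries: deviations from the group means correlated at 0.14, -0.09 and -0.06 between libraries of the same number. The 95% intervals of the members were 0.57 (Rbpj) to 1.28 (Heyl) log2 units wide. Hey1, with 210 counts, had 1.11, but Notch3, with 1852 counts, had 1.13, so width did not follow depth alone.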
